A study of Mus musculus with 12 samples.

Results

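Prrg3, Lonrf2, Ryr3, Cilp and Egfl6 are 5 genes of mouse embryonic fibroblasts, out of 37991 genes listed in each library. They were taken up because their RNA was strongly reduced, relative to wild type, in cells without Ing1. The rule took the strongest falls in the libraries titled DKO, in those titled Ing1-KO, or in both. The levels in these libraries against wild type therefore chose the genes and are given below as a description, with no test. All 5 genes passed the filter on low counts, which left 15098 genes. Prrg3 (ENSMUSG00000033361) and Egfl6 (ENSMUSG00000000402) lie on chromosome X, Lonrf2 (ENSMUSG00000048814) on chromosome 1, Ryr3 (ENSMUSG00000057378) on chromosome 2 and Cilp (ENSMUSG00000042254) on chromosome 9. Ing1 itself is on chromosome 8 and Gadd45a on chromosome 6.

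Polyadenylated RNA was sequenced from primary fibroblasts of male C57BL/6N embryos at E15.5, harvested at passage 4 and 80% confluency. The 4 groups of 3 libraries were wild type (WT), Ing1-/- (Ing1-KO), Gadd45a-/- (labelled Gadd45a-KO) and Gadd45a-/-;Ing1-/- (labelled DKO), all from crosses between mice deficient in either gene. No treatment beyond growth in culture is given for any group, and the deficiencies are germline alleles, so every cell of a culture carries them. Whether each library stands for an embryo of its own is not in the labels, and p-values measure only the spread between libraries, which may be technical. Gene counts per library ran from 31493168 to 42852059.

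Levels are CPM, gene counts scaled to a common library size after edgeR's TMM method, and differences between groups are log2 fold changes from edgeR with their standard error (SE). Ing1 fell to 1.22 ± 0.2 CPM in Ing1-KO and 1.12 ± 0.19 CPM in the libraries labelled DKO, from 52.3 ± 2 CPM in the WT (SD, n = 3 each; edgeR adjusted p = 8.51e-13 and 1.02e-12). Gadd45a went against its label, with 100 ± 22 CPM in the libraries labelled Gadd45a-KO and 126 ± 6.3 CPM in the libraries labelled DKO (SD, n = 3 each), while the WT stood at 21.1 ± 0.2 CPM (SD, n = 3). Which exons the allele removes is not stated in the labels, and counts from outside them do not check it. Every direction given for these 2 groups rests on the labels.

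The products of the 5 genes are described in turn, and a common pathway was not tested. Prrg3 encodes a membrane protein with an outer domain whose glutamates are carboxylated in a vitamin K-dependent step, as in clotting factors. Lonrf2 encodes a RING-type ubiquitin ligase with a LON domain that acts in protein quality control and is best known from neurons. Ryr3 encodes a ryanodine receptor, a channel that lets calcium out of the endoplasmic or sarcoplasmic reticulum, and is best known from muscle and brain. Cilp encodes a secreted matrix protein of cartilage and other connective tissue that binds TGF-beta, and Egfl6 a secreted protein with EGF-like repeats that binds integrins through an RGD motif. Ing1, missing in both groups, encodes a reader of trimethylated lysine on histone H3 that marks active promoters and belongs to Sin3-HDAC complexes.

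Promoters are shown as a description, since Ing1 reads a mark of active promoters. The rule chose these genes as low, and an action of Ing1 at their promoters was not tested. RefSeq's GRCm38.p6 promoter table, which covers 250 bases before to 50 after a start, held 4 of the 5 genes; Ryr3 was not in it. The windows with the most and the fewest CpG dinucleotides are printed 5′ to 3′, with each CpG in capitals. The Prrg3 window (first of its 2 entries) is chrX:71962375-71962674 on the plus strand, and the Cilp window is chr9:65264930-65265229 on the plus strand.
Prrg3: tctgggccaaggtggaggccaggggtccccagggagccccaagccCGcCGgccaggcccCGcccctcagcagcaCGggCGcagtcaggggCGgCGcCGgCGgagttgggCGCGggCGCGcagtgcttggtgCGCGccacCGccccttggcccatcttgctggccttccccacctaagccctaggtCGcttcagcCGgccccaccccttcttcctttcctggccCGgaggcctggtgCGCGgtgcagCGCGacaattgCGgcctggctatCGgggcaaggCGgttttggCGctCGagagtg
Cilp: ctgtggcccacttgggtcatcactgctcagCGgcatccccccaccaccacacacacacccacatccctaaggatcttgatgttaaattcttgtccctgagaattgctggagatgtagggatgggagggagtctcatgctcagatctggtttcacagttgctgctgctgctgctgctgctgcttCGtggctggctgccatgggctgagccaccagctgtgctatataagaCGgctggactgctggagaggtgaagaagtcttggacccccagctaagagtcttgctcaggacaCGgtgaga
The Prrg3 window held 28 CpG dinucleotides and a CpG observed-to-expected ratio of 0.7, and its other window (chrX:71962732-71963031) held 23 and a ratio of 0.64. Cilp held 4, with a ratio of 0.17. The median over all 32851 windows of the table was 7 CpG dinucleotides and a ratio of 0.38. Lonrf2 (20 CpG, ratio 0.8) and Egfl6 (17 CpG, ratio 0.54) lay above that median too. Cilp was thus the sole gene of the 4 below it, and the genes did not share a class of promoter by CpG content.

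The motifs searched, on both strands, were the TATA box TATAAA, the GC box GGGCGG, the CCAAT box, the E-box CACGTG and the AP-1 motif TGACTCA. The GC box, found in 35.7% of all windows, was in both Prrg3 windows and that of Egfl6. The CCAAT box, found in 37.4% of all windows, was in that of Egfl6. The exact letters TATAAA, the E-box and the AP-1 motif, found in 13.6%, 7.2% and 5.2% of all windows, were in none of these windows. The windows of Lonrf2 and Cilp held none of the 5 motifs as spelled here. Other spellings of the TATA box were not searched, and the printed Cilp window holds a close variant before its start. Absence of a TATA box from Cilp is therefore not read from this search. A match is a match of letters only.

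All 5 genes were lower in both Ing1-lacking groups than in the WT, and no library of either group reached a WT library in any of them. Groups failed to overlap in this direction for 18.8% of all genes in Ing1-KO and 18.5% in the libraries labelled DKO. Since the rule used these contrasts, nothing is read from the members' count. The depth of the decrease differed between genes and between groups. Prrg3, Lonrf2, Ryr3 and Cilp had lower means in the libraries labelled DKO than in Ing1-KO, whereas Egfl6 stood much lower in Ing1-KO.

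**Figure D1:**
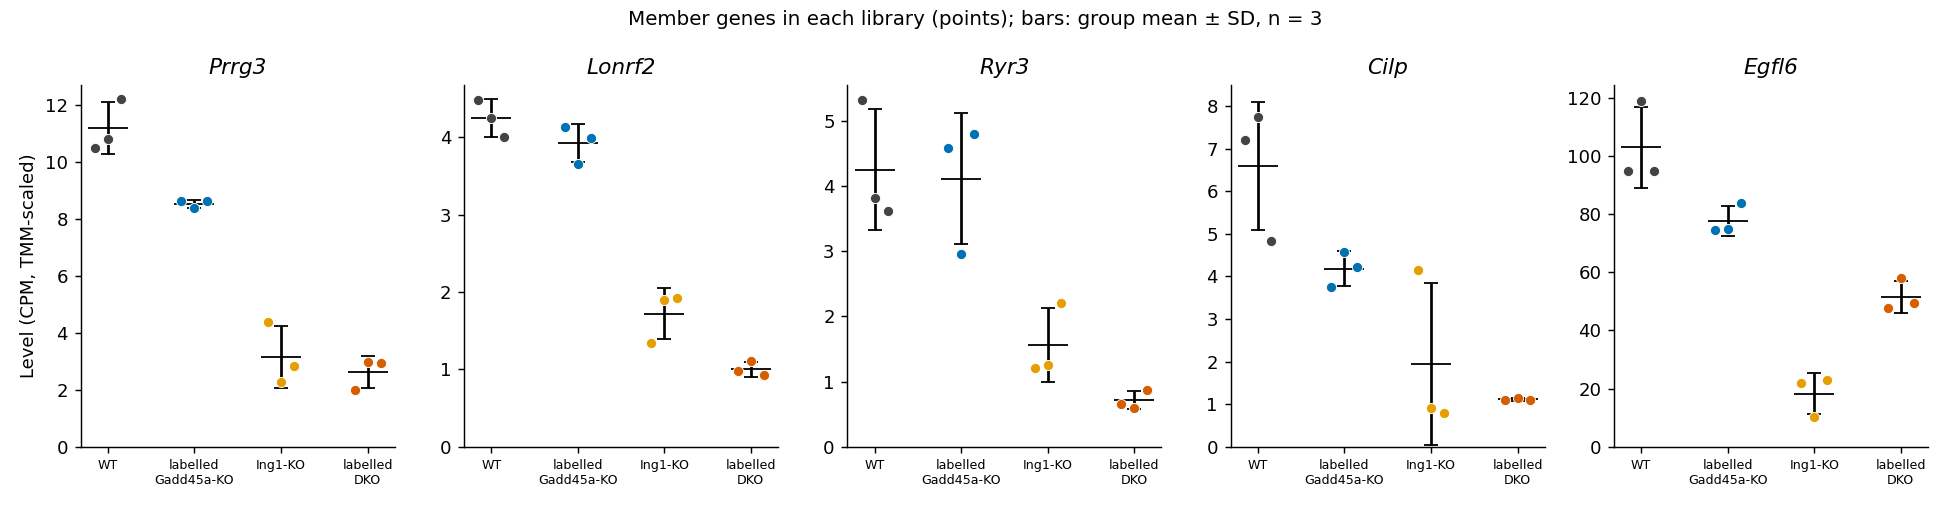
Level of each gene (CPM on TMM-scaled library sizes, axes from 0) in the 12 libraries by group; points are libraries and bars the mean ± SD of 3. In all genes but Cilp every Ing1-lacking library lies below every library with Ing1. In Cilp 1 Ing1-KO library at 4.14 CPM lies among the libraries labelled Gadd45a-KO. The low libraries chose the genes, and the share of all genes split this way was not computed, so nothing is read from the split.

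Prrg3, the membrane Gla protein gene, stood at 10.5, 10.8 and 12.2 CPM in the WT and at 8.62, 8.38 and 8.63 CPM in the libraries labelled Gadd45a-KO. It stood at 4.37, 2.26 and 2.83 CPM in Ing1-KO and at 1.98, 2.97 and 2.94 CPM in the libraries labelled DKO. The 2 Ing1-lacking groups overlapped each other and lay apart from the rest. Their means were 28.2% and 23.6% of the WT mean, with log2 fold changes of -1.83 ± 0.2 in Ing1-KO and -2.08 ± 0.2 in the libraries labelled DKO (SE).

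Lonrf2, the ubiquitin ligase gene, was at 4.49, 4.25 and 4 CPM in the WT and at 4.14, 3.66 and 3.99 CPM in the libraries labelled Gadd45a-KO. These groups overlapped. In Ing1-KO it was at 1.34, 1.9 and 1.92 CPM, and in the libraries labelled DKO at 0.978, 1.11 and 0.928 CPM, which rest on 34 or 35 counts each. The groups descended in steps without overlap from the libraries with Ing1 to Ing1-KO to the libraries labelled DKO. The log2 fold change against the WT was -1.3 ± 0.15 in Ing1-KO and -2.08 ± 0.16 in the libraries labelled DKO (SE).

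Ryr3, the calcium release channel gene, varied more between libraries. WT libraries had 5.31, 3.82 and 3.61 CPM and those labelled Gadd45a-KO 4.58, 2.95 and 4.8 CPM. Ing1-KO libraries had 1.21, 1.25 and 2.21 CPM and those labelled DKO 0.662, 0.6 and 0.875 CPM. The order was the same as for Lonrf2: WT and labelled Gadd45a-KO overlapped, Ing1-KO lay below them, and the libraries labelled DKO lay below Ing1-KO. The means were 36.7% of the WT in Ing1-KO and 16.8% in the libraries labelled DKO, where counts were 19 to 33 per library. The log2 fold changes were -1.44 ± 0.26 and -2.56 ± 0.29 (SE). Ryr3 overlaps Aven, an apoptosis inhibitor gene on the opposite strand, and the library kit does not mark strand. Aven itself stood at 10.5 CPM in the WT, 10.7 in Ing1-KO and 8.83 in the libraries labelled DKO, and was not called (edgeR adjusted p = 0.894 and 0.132).

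Cilp, the cartilage and connective tissue matrix gene, was at 7.19, 7.73 and 4.84 CPM in the WT and at 3.75, 4.57 and 4.22 CPM in the libraries labelled Gadd45a-KO. In Ing1-KO replicate 1 stood apart at 4.14 CPM (160 counts), beside 0.915 and 0.792 CPM in replicates 2 and 3 (38 and 33 counts). The libraries labelled DKO were close together at 1.09, 1.14 and 1.09 CPM. Ing1-KO thus overlapped the libraries labelled Gadd45a-KO as well as those labelled DKO. The log2 fold change in Ing1-KO was -1.77 ± 0.5 with all libraries and -2.95 without replicate 1, and in the libraries labelled DKO it was -2.57 ± 0.54 (SE). Replicate 1 was also the highest of its group for Prrg3, but the lowest for Lonrf2 and Ryr3.

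Egfl6, the integrin-binding matrix gene, had by far the most counts and the other order. It stood at 94.9, 119 and 94.9 CPM in the WT and at 74.5, 74.8 and 83.7 CPM in the libraries labelled Gadd45a-KO. Ing1-KO had 22.1, 10.1 and 22.8 CPM, whereas the libraries labelled DKO had 47.7, 57.9 and 49.3 CPM. No 2 groups overlapped, and the libraries labelled DKO lay between Ing1-KO and those labelled Gadd45a-KO. The mean was 17.8% of the WT in Ing1-KO and 50.1% in the libraries labelled DKO. The log2 fold changes were -2.49 ± 0.26 and -1 ± 0.24 (SE).

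The rule states no threshold, so ranks are given for both groups. Among the 11818 genes averaging at least 2 CPM, ordered from the lowest log2 fold change in the libraries labelled DKO, Cilp was at rank 2, directly after Ing1, and Ryr3 at rank 3. Prrg3 and Lonrf2 were at ranks 6 and 7, with the water channel gene Aqp1 directly before Prrg3 at -2.2 and Naalad2, a peptidase gene, directly after Lonrf2 at -1.94. Egfl6 was at rank 120 there. Over all 15098 genes tested, where genes of few counts precede them, Cilp, Ryr3, Prrg3, Lonrf2 and Egfl6 were at ranks 14, 16, 35, 36 and 400 in the libraries labelled DKO. In Ing1-KO the order was different. Among genes averaging at least 2 CPM, Egfl6 was at rank 5, between the interferon-response genes Ifit1 (-2.54) and Oasl2 (-2.45), Prrg3 at rank 20, Cilp at 25, Ryr3 at 55 and Lonrf2 at 77. Over all genes tested these ranks were 13, 59, 66, 140 and 185. The median log2 fold change over all genes tested was 0.01 in the libraries labelled DKO and 0 in Ing1-KO.

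**Figure D2:**
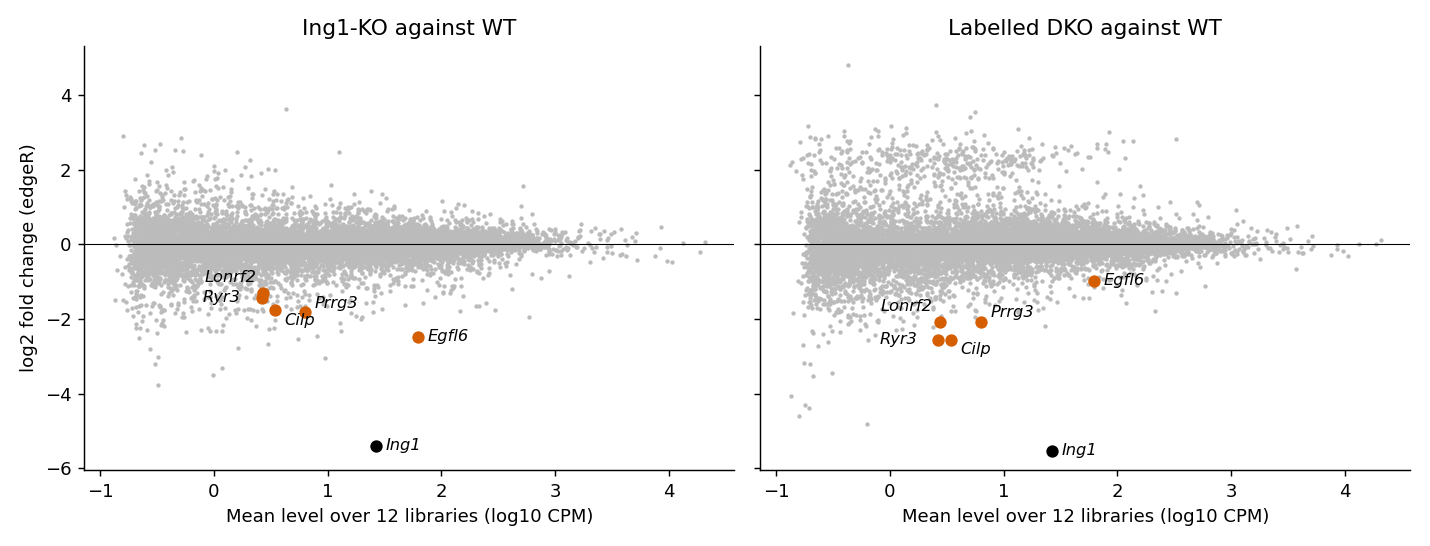
Log2 fold change (edgeR) of all 15098 genes tested against their mean level (log10 CPM over 12 libraries), in Ing1-KO and in the libraries labelled DKO against the WT; the 5 genes and Ing1 are marked. Egfl6 lies deeper in Ing1-KO (-2.49) than in the libraries labelled DKO (-1), and Ryr3 and Cilp lie deepest of the 5 in the latter.

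The decrease can be set out in comparisons that share no library. These are Ing1-KO against the WT and the libraries labelled DKO against those labelled Gadd45a-KO. Each of the 5 genes was lower in both comparisons. The low libraries of both chose the genes, so this is a description and not an independent replication. The share of all genes lower in both was not computed. Prrg3 was at -1.83 ± 0.2 and -1.7 ± 0.2, and Cilp at -1.77 ± 0.5 and -1.92 ± 0.55 (log2 fold change, SE). These pairs lie within 1 SE of each other, for Cilp only with Ing1-KO replicate 1, without which its value in Ing1-KO was -2.95. Lonrf2 was at -1.3 ± 0.15 and -1.97 ± 0.16 and Ryr3 at -1.44 ± 0.26 and -2.51 ± 0.29, lower in the libraries labelled as lacking both genes. Egfl6 was at -2.49 ± 0.26 and -0.59 ± 0.24, the reverse order. The differences between the 2 backgrounds were not tested, since the low libraries chose the genes.

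**Figure D3:**
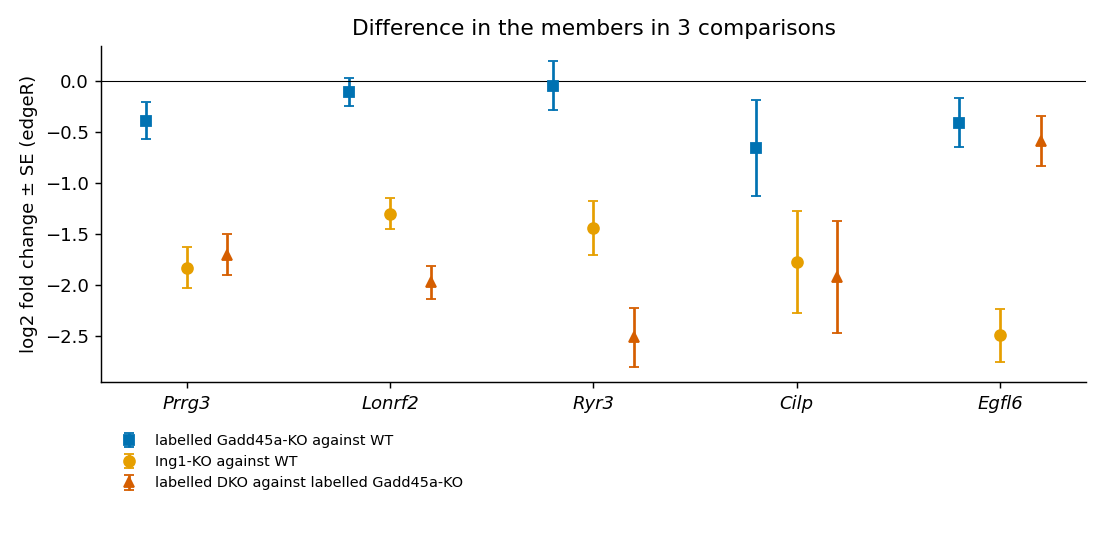
Log2 fold change ± SE (edgeR) of the 5 genes in 3 comparisons: labelled Gadd45a-KO against WT (squares), Ing1-KO against WT (circles) and labelled DKO against labelled Gadd45a-KO (triangles). Circles and triangles lie within 1 SE for Prrg3 and for Cilp (whose circle is at -2.95 without Ing1-KO replicate 1), and apart for Lonrf2 (-1.3 and -1.97), Ryr3 (-1.44 and -2.51) and Egfl6 (-2.49 and -0.59).

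Directly between the Ing1-lacking groups, Egfl6 was 2.82-fold higher in the libraries labelled DKO than in Ing1-KO (log2 fold change 1.5 ± 0.26, SE). Ryr3 and Lonrf2 were lower there, at -1.12 ± 0.31 and -0.78 ± 0.17. Prrg3 (-0.26 ± 0.21) and Cilp (-0.8 ± 0.58) overlapped between these groups, and without Ing1-KO replicate 1 their values were 0.05 and 0.37.

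The libraries labelled Gadd45a-KO took no part in the choice of the genes, though the WT libraries did. Against the WT none of the 5 was called in them by edgeR (Benjamini-Hochberg adjusted p under 0.05 over all genes tested), where 0.00662% of all genes were called, a single gene of 15098, Gadd45a itself. At an unadjusted p under 0.05 there were 1331 genes, none of the 5 among them, and DESeq2 called 31 genes. All 5 log2 fold changes were negative, with a median of -0.39 beside 0 over all genes. Prrg3 was at -0.39 ± 0.18 (edgeR adjusted p = 0.579), Egfl6 at -0.41 ± 0.24 (0.658) and Cilp at -0.66 ± 0.47 (0.725). In these 3 genes no library labelled Gadd45a-KO reached the WT, a pattern found in the lower direction in 6.97% of all genes. Lonrf2 was at -0.11 ± 0.14 (edgeR adjusted p = 0.85) and Ryr3 at -0.05 ± 0.24 (edgeR adjusted p = 0.971), which turned to 0.15 without WT replicate 1 and to 0.14 without labelled Gadd45a-KO replicate 2. The genes were chosen as higher in these WT libraries than in the Ing1-lacking ones, and the part of that choice in the negative values was not tested.

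The closest paralogs were not chosen by level and were tested. Over all genes, 23.5% were called in Ing1-KO (12.1% higher and 11.4% lower) and 25.9% in the libraries labelled DKO (15.6% higher and 10.3% lower). Of 9 paralogs, namely Prrg1, Prrg2, Prrg4, Lonrf1, Lonrf3, Ryr1, Ryr2, Cilp2 and Npnt, none was called lower in either with all libraries fitted. At these shares few of 9 genes would be called lower, so nothing is read from this count. Prrg1 stood at 13.4 ± 1.6 CPM in the WT, 9.95 ± 3.1 in Ing1-KO and 10.4 ± 1.5 in the libraries labelled DKO (SD, n = 3; edgeR adjusted p = 0.133 and 0.201). It was called lower in Ing1-KO without replicate 1 of that group (-0.67, adjusted p = 0.0098) and in the libraries labelled DKO when only these and the WT were fitted (-0.37, adjusted p = 0.0435). Lonrf1 was called lower in Ing1-KO without replicate 1 (-0.3, adjusted p = 0.0353). Lonrf3 went the other way in the libraries labelled DKO, from 1.2 ± 0.35 to 4.11 ± 0.13 CPM (SD, n = 3; log2 fold change 1.78, edgeR adjusted p = 0.000521). The other ryanodine receptor genes, Ryr1 of skeletal muscle and Ryr2 of heart, were near the limit of detection, with at most 24 and 22 counts in any library, and so was Cilp2, with at most 12. Npnt, which encodes the matrix protein nephronectin, a relative of Egfl6, stood at 43.2 ± 3.3, 55.8 ± 18 and 41.9 ± 10 CPM in the WT, Ing1-KO and the libraries labelled DKO (SD, n = 3).

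**Figure D4:**
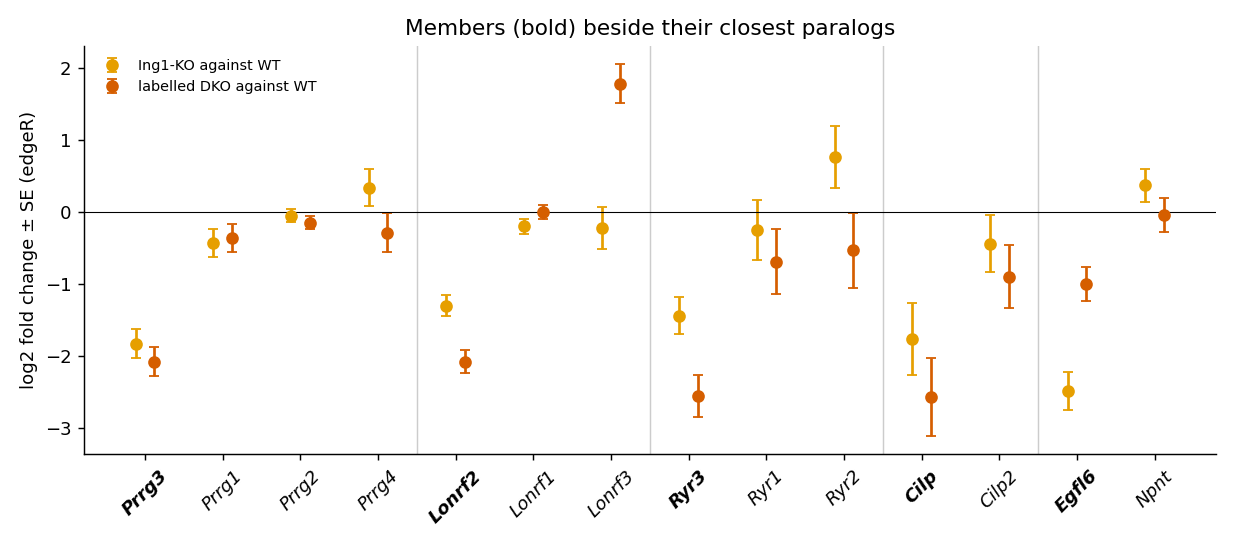
Log2 fold change ± SE (edgeR) against the WT of the 5 genes (bold) and their closest paralogs, in Ing1-KO and in the libraries labelled DKO. The members, chosen for their low levels, lie at -1 or below in both. Lonrf3 rose in the libraries labelled DKO (1.78). No paralog was called lower, where 11.4% and 10.3% of all genes were.

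Partners of the matrix genes changed in both directions. Over all genes, 23.5% were called in Ing1-KO and 25.9% in the libraries labelled DKO. Among 14 genes around Cilp, comprising TGF-beta and IGF ligands, their receptors and neighbours in the matrix, 4 rose, 4 fell and 6 were not called in Ing1-KO, with a median of 0.17 beside 0 over all genes. In the libraries labelled DKO 3 rose, 2 fell and 9 were not called; without WT replicate 1, WT replicate 2 or labelled DKO replicate 2, 2 rose and 1 fell. Ltbp1, which holds latent TGF-beta in the matrix, rose from 177 ± 10 to 300 ± 11 and 286 ± 1.1 CPM in Ing1-KO and the libraries labelled DKO (SD, n = 3; edgeR adjusted p = 1.02e-05 and 2.62e-05). Tgfb1, a ligand that Cilp binds, rose too, by 0.47 ± 0.1 and 0.72 ± 0.1 (log2, SE; edgeR adjusted p = 0.00666 and 0.000473). Tgfb2 rose by 0.57 ± 0.09 in Ing1-KO and 0.31 ± 0.09 in the libraries labelled DKO (edgeR adjusted p = 0.00133 and 0.0277). The receptor gene Tgfbr2 fell by 0.48 ± 0.07 and 0.22 ± 0.07 (log2, SE, edgeR adjusted p = 0.000497 and 0.0238). Both calls in the libraries labelled DKO were lost without WT replicate 1 or 2 or labelled DKO replicate 2. That of Tgfb2 was also lost without WT replicate 3 or labelled DKO replicate 1. Larger decreases were those of Igf1 and Fmod. Igf1 was at -1.39 ± 0.27 in Ing1-KO (edgeR adjusted p = 0.00678) and was not called in the libraries labelled DKO (edgeR adjusted p = 0.311). Fmod was at -1.11 ± 0.24 in Ing1-KO and -1.09 ± 0.24 in the libraries labelled DKO (edgeR adjusted p = 0.0112 and 0.00999).

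Of 13 relatives and receptors of Egfl6, 4 rose, 2 fell and 7 were not called in Ing1-KO, beside 23.5% of all genes called. In the libraries labelled DKO 2 rose, 2 fell and 9 were not called, beside 25.9% of all genes called. The count in these libraries was 1 rising and 1 falling without WT replicate 1 or 2 or without any 1 of them. Megf6, another gene with EGF-like repeats, fell from 175 ± 33 CPM to 70.8 ± 7.1 in Ing1-KO and 58.3 ± 13 in the libraries labelled DKO (SD, n = 3; edgeR adjusted p = 0.00133 and 0.000414). The integrin gene Itga5 rose by 0.7 ± 0.09 and 0.64 ± 0.09 (log2, SE; edgeR adjusted p = 0.000351 and 0.000406). Fbln1, a matrix protein gene, fell by 0.82 ± 0.09 in Ing1-KO (log2, SE; edgeR adjusted p = 0.000205) and Nid1, of basement membranes, rose by 0.29 ± 0.05 (edgeR adjusted p = 0.00195).

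Store calcium genes, which act beside Ryr3, were called in both directions, 8 of 25 in each group, beside 23.5% of all genes in Ing1-KO and 25.9% in the libraries labelled DKO. Of the 25, 5 rose, 3 fell and 17 were not called in Ing1-KO, and 3 rose, 5 fell and 17 were not called in the libraries labelled DKO. In Ing1-KO the counts were 2 and 2 without WT replicate 2 or Ing1-KO replicate 2, and 2 and 3 with only these groups fitted. The IP3 receptor gene Itpr1, which encodes the other main type of release channel, fell from 73.6 ± 2.9 to 55.7 ± 2.7 CPM in Ing1-KO and 58.2 ± 0.25 in the libraries labelled DKO (SD, n = 3; edgeR adjusted p = 0.000334 and 0.000641). Its paralog Itpr3 rose from 48.6 ± 3 to 70.7 ± 5.7 CPM in Ing1-KO (edgeR adjusted p = 0.000826). Homer1, a scaffold of these channels, rose by 0.36 ± 0.08 in the libraries labelled DKO (log2, SE; edgeR adjusted p = 0.00343). Atp2a3, a calcium pump gene also used by blood cells, rose from 2.42 ± 0.77 to 10.9 ± 1.9 CPM in the libraries labelled DKO (SD, n = 3, edgeR adjusted p = 0.00339). Macrophage markers rose in these libraries too, and a link was not tested.

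Gla protein and vitamin K genes, the setting of Prrg3, also went both ways. Of 12 tested, 2 rose, 4 fell and 6 were not called in Ing1-KO, beside 23.5% of all genes called. In the libraries labelled DKO 2 rose, 1 fell and 9 were not called, beside 25.9% of all genes called. The rising and falling counts there were 2 and 3 with RLE scaling, 1 and 4 with only these groups fitted, and 1 and 0 without WT replicate 2. Gas6 encodes a secreted Gla protein that activates the receptors Axl, Mertk and Tyro3. It fell from 485 ± 37 to 276 ± 58 CPM in Ing1-KO and 355 ± 45 in the libraries labelled DKO (SD, n = 3, edgeR adjusted p = 0.0029 and 0.0364). The call in the latter libraries was lost with no filter or with the replicate block. It was also lost without WT replicate 1 or 2 or labelled DKO replicate 1 or 3. In Ing1-KO Postn, a matrix protein gene, fell by 0.44 ± 0.06 and Axl rose by 0.24 ± 0.05 (log2, SE, edgeR adjusted p = 0.000587 and 0.00322). Mertk, which macrophages also use to take up dead cells, rose from 11.2 ± 1.9 to 26.3 ± 1.8 CPM in the libraries labelled DKO (SD, n = 3; edgeR adjusted p = 6.83e-05). Of 6 relatives of Lonrf2, Crbn, a ligase receptor with a LON-like domain, fell by 0.21 ± 0.05 in Ing1-KO (log2, SE; edgeR adjusted p = 0.00713). Stub1, a chaperone-linked ligase gene, rose by 0.33 ± 0.09 in Ing1-KO (adjusted p = 0.0181), a call lost without WT replicate 2 or 3 or Ing1-KO replicate 2 (adjusted p = 0.0586, 0.073 and 0.0892). The other 4 of the 6 were not called there; without Ing1-KO replicate 1, 2 rose and 2 fell. In the libraries labelled DKO 2 of the 6 rose, Lonrf3 and Stub1 (0.31, edgeR adjusted p = 0.0209), and 1 fell, Crbn (-0.16, edgeR adjusted p = 0.0308). Only Lonrf3 was called there without WT replicate 2 or 3 or labelled DKO replicate 2. Crbn was also not called without WT replicate 1 or labelled DKO replicate 1, or with only these groups fitted.

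Marker genes of other cells were set beside these levels. Over all genes, 12.1% were called higher and 11.4% lower in Ing1-KO, and 15.6% higher and 10.3% lower in the libraries labelled DKO. In bulk RNA, fewer cells of a type and less RNA per cell cannot be told apart. All 12 fibroblast markers were over 1 CPM in every group. Their summed level, carried mostly by collagen and fibronectin genes, was 61400 to 66200 CPM in the WT, 59000 to 67100 in Ing1-KO and 60200 to 66500 in the libraries labelled DKO. Single markers moved: in Ing1-KO 3 rose and 4 fell, and in the libraries labelled DKO 2 fell and none rose. Mean levels of Fn1, Vim and Thy1 were 7710, 2480 and 1070 CPM in the WT and 10500, 3180 and 1330 in Ing1-KO. In the libraries labelled DKO they were 7610, 2420 and 1140. Dcn, the matrix proteoglycan gene of decorin, fell from 393 CPM in the WT to 133 in Ing1-KO and 164 in the libraries labelled DKO (edgeR adjusted p = 0.000264 and 0.000438). Lum, the gene of the related lumican, stood at 140, 52.4 and 73.9 CPM and was called in Ing1-KO but not in the libraries labelled DKO (edgeR adjusted p = 0.0151 and 0.0688).

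Of 6 smooth muscle and pericyte markers, 4 rose in Ing1-KO and 3 in the libraries labelled DKO and none fell, with medians of 0.71 and 0.44 (log2) beside 0 and 0.01 over all genes. Their sum was 4880 to 5390 CPM in the WT, 5770 to 7130 in Ing1-KO and 5850 to 6580 in the libraries labelled DKO. Cnn1, the calponin gene, rose from 203 to 356 and 287 CPM (edgeR adjusted p = 0.000116 and 0.00104). All 17 macrophage markers rose in the libraries labelled DKO, to a sum of 2290 to 2870 CPM from 273 to 468 in the WT. None was called in Ing1-KO, where the sum was 368 to 650 CPM.

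Of 9 cartilage markers tested, genes of a tissue known for Cilp, 3 rose and 1 fell in Ing1-KO and 1 fell in the libraries labelled DKO. The sum over all 10 was 35.3 to 44.1 CPM in the WT, 47.1 to 96.4 in Ing1-KO and 37.6 to 43 in the libraries labelled DKO. Of 5 tendon markers 3 fell in the libraries labelled DKO, namely Tnmd (-1.35), Fmod (-1.09) and Mkx (-0.99, edgeR adjusted p = 0.00425, 0.00999 and 0.0211). In Ing1-KO Fmod fell (-1.11) and Scx rose (1.24, edgeR adjusted p = 0.0112 and 0.0049). The tendon markers summed to 343 to 381 CPM in the WT, 156 to 315 in Ing1-KO and 148 to 182 in the libraries labelled DKO.

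The 8 skeletal muscle markers, from a tissue where Ryr3 is known, summed to 55.3 to 57.8 CPM in the WT, 83.1 to 133 in Ing1-KO and 62.8 to 100 in the libraries labelled DKO. Acta1 and Des carried nearly all of this sum. Of the 4 tested, Acta1 rose from 21.4 to 50.9 and 31.8 CPM and Myh3, with at most 27 counts, fell from 0.554 to 0.0591 and 0.045 CPM (edgeR adjusted p in Ing1-KO 0.000777 and 0.003, in the libraries labelled DKO 0.0272 and 0.00227). Des, which is also on the smooth muscle list, and Ttn were not called. Myod1 and Myog, which define the lineage, had at most 3 and 7 counts in any library. The 7 neuron markers, for cells where Lonrf2 is known, summed to 101 to 114, 112 to 138 and 142 to 179 CPM in the same groups, mostly from Tubb3. Of the 4 tested, Stmn2 rose from 7.77 to 18 CPM in Ing1-KO and Tubb3 from 97 to 151 CPM in the libraries labelled DKO (edgeR adjusted p = 0.00361 and 0.0145), while Rbfox3, Snap25 and Elavl3 had at most 1, 2 and 2 counts. Of 5 endothelial markers 1 rose and 1 fell in Ing1-KO and 2 rose and 1 fell in the libraries labelled DKO. Of 2 epithelial markers tested none was called in Ing1-KO and 1 rose in the libraries labelled DKO. The part of any of these cell types in the levels of the members, Atp2a3 or Mertk was not tested.

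Of the members' neighbours on the chromosomes, Chst10 beside Lonrf2 fell in both Ing1-lacking groups. The nearest tested gene on each side was taken from the gene order of GENCODE M21, a later build than that of the counts, so no coordinates are given. Of 10 neighbours 2 fell in Ing1-KO and 1 fell in the libraries labelled DKO, beside 11.4% and 10.3% of all genes called lower, and none rose in either. Chst10, a sulfotransferase gene, fell from 6.19 to 3.56 CPM in Ing1-KO and 3.47 CPM in the libraries labelled DKO (log2 fold changes -0.8 ± 0.15 and -0.83 ± 0.15, SE; edgeR adjusted p = 0.00287 and 0.00183). It stood at 6.16 CPM in the libraries labelled Gadd45a-KO. Vma21, a proton pump assembly gene beside Prrg3, was called lower in Ing1-KO alone (-0.25 ± 0.07, edgeR adjusted p = 0.0231), and not without WT replicate 2 or 3 or Ing1-KO replicate 2 or 3 (adjusted p = 0.0644, 0.0966, 0.0895 and 0.071).

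Likeness of pattern was measured as the root mean square difference between 2 genes in log2 CPM over the 12 libraries, each gene centred on its own mean, among 14609 genes with a symbol. It is a description, and libraries of a group share their genotype. Lonrf2 was the gene closest to Ryr3 (0.34), followed by Gm11816 (0.34) and the matrilin gene Matn4 (0.36), where the median gene was at 1.09. Closest to Lonrf2 were Gprin1, a gene of neurite growth (0.17), Gm11816 (0.23) and the transporter gene Abca8a (0.24), with Ryr3 at rank 13. Prrg3 was the gene closest to Cilp (0.45), followed by Islr and Ace, both at 0.5, while Cilp was at rank 45 from Prrg3.

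Prrg3 itself was closest to Lgr5 (0.26), the R-spondin receptor gene known from stem cells. Lgr5 stood at 343 CPM in the WT, 300 in the libraries labelled Gadd45a-KO, 110 in Ing1-KO and 99.7 in those labelled DKO. Next to it were Kitl, the ligand gene of the Kit receptor, and the complement gene C2, both at 0.3. Egfl6 had other company: the cytokine receptor gene Il31ra (0.3), the lipoprotein lipase gene Lpl (0.3) and Kera, which encodes the proteoglycan keratocan (0.31). Lpl stood at 218 CPM in the WT, 184 in the libraries labelled Gadd45a-KO, 62.6 in Ing1-KO and 122 in those labelled DKO, the same order of groups as Egfl6. No other member came closer to Egfl6 than 0.69.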

How the data were processed

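The authors deposited raw read counts, in a separate table for each library. The submitters' processing notes name TopHat2 2.0.9, Bowtie2 2.1.0, HTSeq 0.5.4 and the build mm9 (NCBIM37), with no settings, and whether counting used strand is not known here. Per the labels' protocols, libraries were made from 280 ng RNA with 12 PCR cycles and read for 51 cycles. The 5 summary lines of each table, 23.89% to 24.91% of reads, were left out of library totals; reads without a unique place (17.9% to 19.12%) count to no gene. No 2 libraries of a group agreed within sampling noise.

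One edgeR 4.0.16 model (R 4.3.3) held the 12 libraries in 4 groups, with TMM scaling, filterByExpr, robust quasi-likelihood tests (two-sided) and Benjamini-Hochberg adjustment over 15098 genes per comparison; SE is the log2 fold change over the root of the F statistic. An exact permutation test of 3 against 3 cannot go below p = 0.1 and was not run. The fit was tested on simulated data. Of the genes called there at an adjusted p under 0.05, 4.8% were false for Ing1-KO against the WT. The share was 6.6% for labelled DKO and 3.9% for labelled Gadd45a-KO against the WT. Alternatives were DESeq2 1.42.0, RLE scaling, no filter, no robust option, only the groups compared, a replicate block and leaving out each library. Symbols came from GENCODE M21.

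The members and lists were chosen with earlier results of these data known. Named are the 5 members, Ing1, Gadd45a, up to 4 called genes per list with the smallest adjusted p, the closest paralogs, the nearest tested neighbours, the 3 genes most alike in pattern to each member, and genes next in rank. Markers named singly were chosen after their values were seen. So were Homer2, Homer3, Igf1 and Fmod, named beyond the 4 genes of their lists.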

Additional observations from a re-analysis of the deposited data

How the results depend on the processing

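Each of the 5 genes kept a negative log2 fold change against the WT in Ing1-KO and in the libraries labelled DKO under all 12 alternatives run for each. Cilp in Ing1-KO moved from -1.77 to -2.95 without Ing1-KO replicate 1 (range -2.95 to -1.4 over the libraries left out). Against the libraries labelled Gadd45a-KO it was -2.29 without that library, instead of -1.12. Between the Ing1-lacking groups Prrg3 and Cilp turned to 0.05 and 0.37 without it (ranges -0.45 to 0.05 and -1.18 to 0.37). In the libraries labelled Gadd45a-KO against the WT, no member was called under any alternative, although DESeq2 gave Lonrf2 and Ryr3 no adjusted p. Ryr3 there ranged from -0.18 to 0.15 over the libraries left out, with 0.15 without WT replicate 1 and 0.14 without labelled Gadd45a-KO replicate 2.

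The number of genes called in Ing1-KO against the WT was 3543, and 1858 to 3548 with 1 library left out (2113 without WT replicate 2, 1858 without Ing1-KO replicate 2). In the libraries labelled DKO it was 3909, and 2754 to 3536 with 1 left out. In those labelled Gadd45a-KO it was 1, with 1 to 13 when 1 library was left out (13 without WT replicate 1), 0 with only the groups compared and 31 with DESeq2; the cause was not tested.

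Replicate numbers did not pair the libraries: 4 of 18 same-numbered pairs had correlated deviations over 0.1, and the own number was the best match in 13 of 36 cases. With the replicate block 3434, 3824 and 1 genes were called in these comparisons.

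Uncalled values near 0 changed sign when 1 library was left out. In Ing1-KO these were Mertk (-0.14 to 0.11), Prrg2 (-0.11 to 0.04) and Ryr1 (-0.51 to 0.33). In the libraries labelled DKO they were Lonrf1 (-0.05 to 0.06), Npnt (-0.25 to 0.09) and Vma21 (-0.07 to 0.05). Low counts limit Ryr3, Lonrf2 and Cilp in the libraries labelled DKO, at 19 to 41 counts each.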
